A study of Mus musculus with 24 samples.

Results

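Peritoneal metastases of mice labelled as treated with butyrate were compared with untreated ones by RNA sequencing, 6 libraries against 6 of the 24 in the series. Members of the comparison were chosen by the treatment label alone: "butyrate" in one group and "none" in the other. All libraries are labelled as peritoneum and are described as samples of peritoneal metastasis, and the title of the series concerns mannose, PD-1 blockade in ovarian cancer and a metabolite of gut microbes. The labels give no strain, age, tumour line, dose, route or duration, and do not say whether any animal received an antibody or mannose. Whether replicates are separate animals is not stated either, and a p-value here reflects the spread among these 12 libraries, which may be technical. RNA came from bulk tissue, not from sorted cells. A lower value can therefore come from fewer cells of a type or from less RNA per cell, and these cannot be told apart.

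Butyrate is a short-chain fatty acid that gut bacteria make from dietary fibre. It enters cells through monocarboxylate carriers such as Slc16a1 (MCT1), signals through the G protein-coupled receptors Ffar2, Ffar3 and Hcar2, and inhibits zinc-dependent histone deacetylases. In mitochondria it is activated to butyryl-CoA and oxidised, and in dividing cultured cells it is known for slowing the cell cycle and raising the inhibitor Cdkn1a.

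The deposited values are TPM, transcript abundances per length that share a fixed total in each library, so a class that takes more of a library lowers every other gene. Transcripts of the mitochondrial genome took 12.8 to 22.6% of TPM in control (mean 16.6 ± 3.72, SD, n = 6) and 20.5 to 26.8% with butyrate (23.2 ± 2.46). The share was higher with butyrate in 32 of 36 pairs of libraries (two-sided exact permutation test, p = 0.0108, with 0.00216 the smallest possible). Skeletal muscle genes, a list of 39, took 9.36 ± 3.89% in control and 12.4 ± 1.99% with butyrate (exact permutation p = 0.123, 26 of 36 pairs). Without control replicate 3, described below, the muscle shares differed by 4.12 percentage points (exact permutation p = 0.0281). Every value below was therefore divided by a median-of-ratios factor for its library, 0.824 to 1.46 in control and 0.703 to 1.11 with butyrate, and is called scaled TPM. On this scale the median log2 fold change of all 14189 tested genes was 0.01. It was -0.40 for TPM as deposited and -0.24 when mitochondrial genome and skeletal muscle genes were left out, so on those scales a gene at the median already lies below control.

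**Figure D1:**
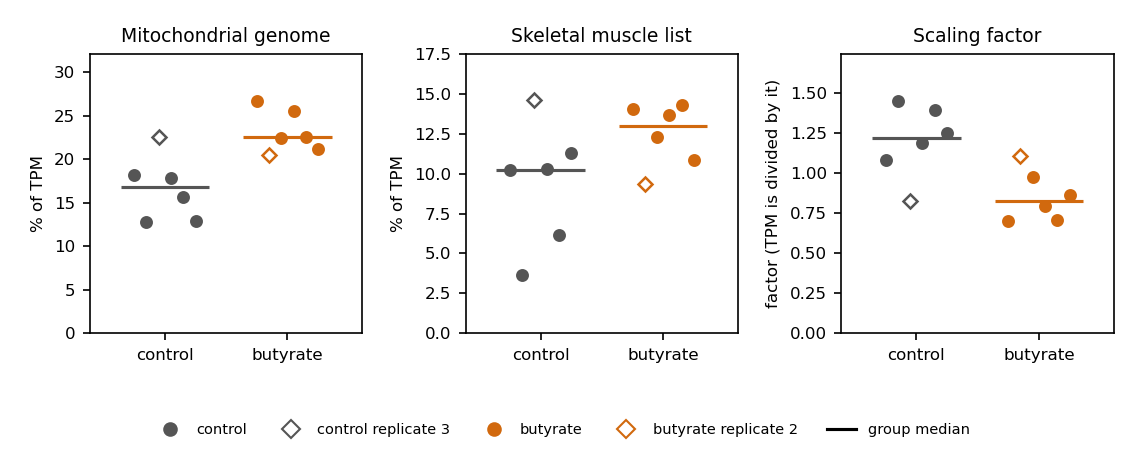
Share of TPM from the mitochondrial genome and from 39 skeletal muscle genes (% of TPM), and the scaling factor, for each library, with a line at each group's median. Open diamonds are control replicate 3, at 22.6% mitochondrial TPM among the butyrate libraries, and butyrate replicate 2, at 20.5%, the lowest of its group.

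One control library stood apart. Control replicate 3 lay at 69.4 on the first principal component (67.6% of the variance), among the butyrate libraries, which ran from -29.9 to 75.8, while the other 5 controls ran from -77.7 to -26.5. Wt1, a transcription factor of mesothelium and of serous ovarian tumours, was at 0.789 scaled TPM in control replicate 3 and at 121 to 253 in the other controls. Butyrate replicate 2 was the library of its group nearest to the controls, with 150 scaled TPM of Wt1. No gene in these files checks the treatment labels, and whether the label or the tissue sampled differs for these libraries cannot be told apart. Values without control replicate 3 are given beside the lists below.

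No gene passed the test between the groups. Of 14189 genes, limma with Benjamini-Hochberg adjustment called 0 higher (0%) and 0 lower (0%) at a threshold of 0.05. The lowest adjusted p of limma was 0.117. At an unadjusted p under 0.05, 2438 genes (17.2%) lay higher and 2542 (17.9%) lower, and 51.1% of genes lay above control and 48.9% below. Without control replicate 3, limma called 3316 genes higher (23.4%) and 3480 lower (24.5%), with a smallest adjusted p of 0.0078. Control replicate 3 was singled out on the same values that are tested, and leaving out the control nearest to the butyrate libraries widens the difference. Counts without it are therefore a description and not independent support. No gene passed when any other single library was left out. In what follows a gene "passes" only in the fit that the sentence names, and values after ± are SEs of log2 fold changes. The shares of all genes given here are the background for every count of list members below.

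**Figure D2:**
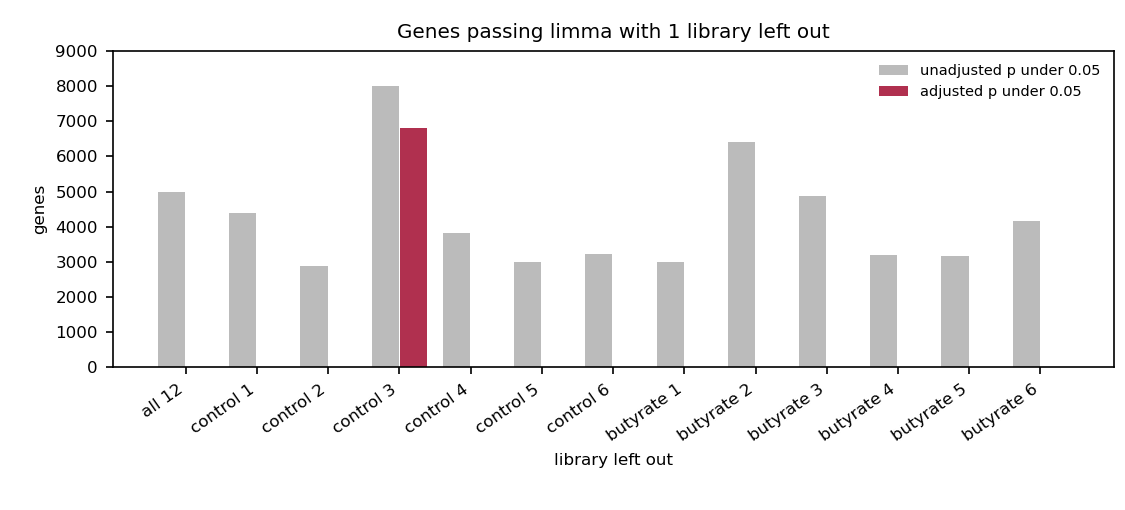
Number of genes with an unadjusted (grey) and an adjusted (red) p under 0.05 in limma with all 12 libraries and with each library left out in turn. Adjusted calls appear only without control replicate 3, where there were 6796.

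The 10 genes of smallest unadjusted p in each direction, among those with a mean log2(scaled TPM + 1) of at least 2, are described first, and ranking by p favours groups that do not overlap. In 14189 genes, all 6 butyrate libraries lay above all 6 controls for 51 (0.359%) and below them for 86 (0.606%). Among genes above control, Mir133a-1hg, the host transcript of a muscle microRNA, was at 3.87, 8.33 and 13.8 scaled TPM (lowest, median, highest) in control and 15.1, 23.9 and 32.9 with butyrate. Its log2 fold change was 1.40 ± 0.27, with every butyrate library above every control. Prrx1, a transcription factor of mesenchymal cells, was at 11.8, 14.9 and 22.95 in control and 23.3, 26.1 and 34.6 with butyrate, a log2 fold change of 0.79 ± 0.16. These groups did not overlap either, but control replicate 3 was the highest control, just under the lowest butyrate library. Irag1, a substrate of cyclic GMP kinase in smooth muscle, was at 2.78, 3.35 and 4.03 in control and 4.70, 5.60 and 6.45 with butyrate, a log2 fold change of 0.62 ± 0.11. For Irag1 and Mir133a-1hg control replicate 3 was inside the range of the other controls, at 2.81 and 8.14 scaled TPM. The other 7 were Cytl1 (1.32), a secreted factor of cartilage, the sodium channel Scn7a (0.87), Hacl1 (0.84), a peroxisomal lyase of branched fatty acids, Zfp433 (0.68), the formin Fmnl2 (0.61), Arhgef40 (0.61) and Lyrm2 (0.53). Of these 7, all but Zfp433 had control replicate 3 as their highest control.

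Below control, Pank1, a pantothenate kinase that starts coenzyme A synthesis, had the largest difference of the 10. It was at 15.7, 21.99 and 27.7 scaled TPM in control and 4.33, 7.55 and 14.3 with butyrate, a log2 fold change of -1.38 ± 0.27, and no butyrate library reached the lowest control. Nop2, a methyltransferase of ribosomal RNA, was at 13.1, 16.0 and 18.4 in control and 7.69, 10.6 and 11.6 with butyrate (-0.59 ± 0.11). Elavl1, which encodes the RNA-binding protein HuR, was at 30.4, 33.9 and 40.1 in control and 22.1, 23.8 and 28.8 with butyrate (-0.47 ± 0.09). For both genes all butyrate libraries again lay under all controls. Zbtb21 (-0.71 ± 0.15), Ints5 of the Integrator complex (-0.56 ± 0.11), Ppme1, a methylesterase of protein phosphatase 2A (-0.52 ± 0.10), Mavs, the adaptor of RNA sensing at mitochondria (-0.51 ± 0.11), Wdr82 (-0.48 ± 0.10) and Txlna (-0.44 ± 0.09) did not overlap between the groups. Kctd5 (-0.73 ± 0.15) had 1 pair of 36 in the other order. In control replicate 3, Nop2 (16.2), Wdr82 (28.6) and Zbtb21 (6.19) lay above the group's median. Pank1 (15.7), Elavl1 (30.4), Ints5 (5.85), Mavs (28.3) and Kctd5 (9.98) were there at the bottom of the control range. All 20 genes passed in limma without that library, at an adjusted p between 0.0078 and 0.00856. In that fit 23.4% of all genes passed higher and 24.5% lower. The 20 were ranked on the same libraries, so this is a description and not independent support.

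**Figure D3:**
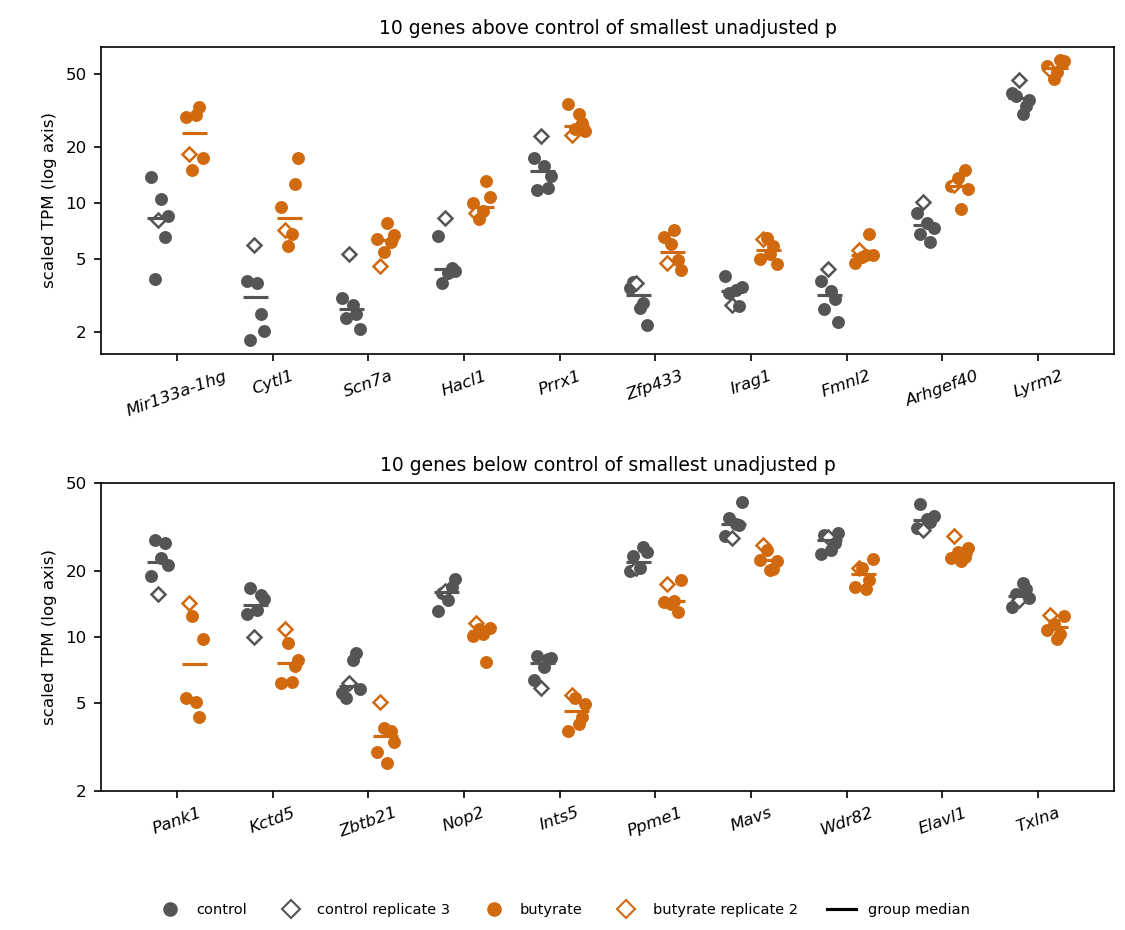
Scaled TPM per library (log axis) of the 10 genes above and the 10 below control of smallest unadjusted p among those with a mean log2(scaled TPM + 1) of at least 2, with a line at each group's median. For Pank1 the controls sit between 15.7 and 27.7 and the butyrate libraries between 4.33 and 14.3.

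Genes of cell division mostly lay lower with butyrate. List scores (mean log2 scaled TPM + 1) were 1.12 to 2.94 with butyrate. They were 2.95 to 3.95 in 5 of the 6 controls and 1.46 in control replicate 3. Butyrate replicate 2, at 2.9450, all but reached the lowest of those 5, control replicate 4 at 2.9452. The proteins of this list condense and separate chromosomes, and many of their promoters carry CCAAT boxes bound by NF-Y and a cell cycle genes homology region (CHR) bound by the DREAM complex and B-MYB. Of 45 tested members, 44 lay below control, 36 of them at an unadjusted p under 0.05 (17.9% of all genes). The median log2 fold change was -1.18 (all genes 0.01). The 1 member above was Pttg1, the mouse securin, at 0.40 ± 0.23 (-0.08 for TPM as deposited). None passed with all libraries. Without control replicate 3 the median was -1.45, and 43 members passed lower and 1 higher in limma, against 24.5% and 23.4% of all genes.

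The 250 bases before the start of 3 of the members of smallest p are printed to show the letters of these motifs. Sequences come from RefSeq on build GRCm38.p6, 5′ to 3′ on the strand of the gene. Capitals mark a match, on either strand, to the CHR (TTTGAA or TTCGAA) or to the CCAAT box (CCAAT), and in the Ube2c promoter a CCAAT and its reverse complement overlap. Ncapd2 lies on the minus strand at chr6:125191587-125191836, Ube2c on the plus strand at chr2:164769679-164769928 and Racgap1 on the minus strand at chr15:99651657-99651906.
Ncapd2: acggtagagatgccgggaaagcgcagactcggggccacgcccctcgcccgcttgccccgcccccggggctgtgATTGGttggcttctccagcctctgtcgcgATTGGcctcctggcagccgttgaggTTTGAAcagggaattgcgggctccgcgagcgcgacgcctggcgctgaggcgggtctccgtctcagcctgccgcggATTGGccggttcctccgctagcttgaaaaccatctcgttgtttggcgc
Ube2c: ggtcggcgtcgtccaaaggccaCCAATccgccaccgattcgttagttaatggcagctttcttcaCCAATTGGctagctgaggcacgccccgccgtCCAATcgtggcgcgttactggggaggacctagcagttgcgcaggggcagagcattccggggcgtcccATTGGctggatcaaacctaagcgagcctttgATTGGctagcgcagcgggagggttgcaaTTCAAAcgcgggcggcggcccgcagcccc
Racgap1: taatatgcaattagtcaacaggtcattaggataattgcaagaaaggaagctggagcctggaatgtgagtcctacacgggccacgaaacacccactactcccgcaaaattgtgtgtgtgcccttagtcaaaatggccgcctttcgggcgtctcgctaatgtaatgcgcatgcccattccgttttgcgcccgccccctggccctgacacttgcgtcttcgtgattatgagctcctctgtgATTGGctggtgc

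Over the 39 promoters in that table of 37 matched members, 15 (38.5%) held a CHR, against 5633 of 32851 promoters of all genes (17.1%). A CCAAT box was in 29 (74.4%), against 33.8% of all promoters. Among the 3 printed, the promoters of Ncapd2 and Ube2c hold both motifs and that of Racgap1 holds a CCAAT box alone. A match is a description of letters and not of binding in these samples.

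Ncapd2, a condensin subunit, was at 9.02, 19.7 and 29.9 scaled TPM in control and 3.88, 6.40 and 16.6 with butyrate, a log2 fold change of -1.21 ± 0.32, higher in 4 of 36 pairs. Racgap1, which organises the cleavage furrow, was at 2.68, 19.2 and 33.9 in control and 1.31, 4.88 and 14.04 with butyrate (-1.72 ± 0.59). Ube2c, the ubiquitin-conjugating enzyme of the anaphase-promoting complex, was at 6.58, 21.5 and 46.9 in control and 2.76, 8.90 and 16.2 with butyrate (-1.42 ± 0.49). In all 3 the lowest control was replicate 3. The other 5 controls lay above every butyrate library for Racgap1 and Ube2c, and for Ncapd2 only butyrate replicate 2, at 16.6, reached into their range of 15.5 to 29.9. Kif2c, a kinesin that takes microtubules apart at kinetochores, was at -1.03 ± 0.36. Mki67, the classical marker of cycling cells, was at 1.07, 7.38 and 15.4 scaled TPM in control and 0.427, 2.51 and 6.75 with butyrate (-1.32 ± 0.54), and -1.72 without control replicate 3.

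DNA replication genes, which copy the genome in S phase, lay below control with a smaller median difference. All 40 tested members lay below control, 31 of them at an unadjusted p under 0.05 (17.9% of all genes), with a median of -0.79. Without control replicate 3 the median was -1.05 and 36 passed lower, against 24.5% of all genes. Mcm2, of the replicative helicase, was at 4.15, 14.8 and 21.8 scaled TPM in control and 3.29, 4.73 and 10.2 with butyrate (-1.14 ± 0.34). Pold1, the catalytic subunit of DNA polymerase delta, was the 1 member whose groups did not overlap, against 0.606% of all genes below control without overlap. It was at 5.87, 8.22 and 9.90 in control and 4.04, 4.89 and 5.80 with butyrate (-0.61 ± 0.13). Gins2 of the same helicase was at -0.51 ± 0.17, and Slbp, which binds histone mRNA, at -0.61 ± 0.20. The cyclin-dependent kinase inhibitor Cdkn1a, a known butyrate target in culture, was at 28.0, 34.5 and 62.7 in control and 29.5, 40.4 and 56.0 with butyrate. Its log2 fold change was 0.06 ± 0.20, with overlapping groups, and it lay below 0 for TPM as deposited.

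Ribosome biogenesis genes lay below control, and their list score was higher with butyrate in 1 of 36 pairs, control replicate 3 included. Of 34 tested, 28 lay below, 17 of them at an unadjusted p under 0.05 (17.9% of all genes), with a median of -0.32 and of -0.39 without that library. Nolc1, a nucleolar chaperone, was at 16.83, 21.6 and 24.9 scaled TPM in control and 11.01, 13.6 and 16.82 with butyrate (-0.59 ± 0.13), with no overlap, as for Nop2. Bop1, which processes the large subunit, was at -0.72 ± 0.16, and Ubtf, a transcription factor of RNA polymerase I, at -0.44 ± 0.12. Of 81 tested cytosolic ribosomal protein genes, 48 lay above and 33 below control, with a median of 0.06 (-0.22 with quantile normalization). Spliceosome genes were spread around a small shift, with 46 of 63 below control and a median of -0.10. At an unadjusted p under 0.05, 16 lay lower and 7 higher, and the highest member was at 0.92. Without overlap between the groups, 3 members lay below control and 1 above, against 0.606% and 0.359% of all genes. Lsm2 (-0.54 ± 0.12) and Sf3a1 (-0.46 ± 0.10) were among those 3, and Sf3b4 was at -0.82 ± 0.20.

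Mitochondrial transcripts lay above control whether encoded in the organelle or the nucleus. All 13 protein-coding genes of the mitochondrial genome lay above control at an unadjusted p under 0.05, with a median of 0.90 and of 1.10 without control replicate 3, where all 13 passed. mt-Nd3, a complex I subunit, was at 2650, 3539 and 10165 scaled TPM in control and 6261, 11962 and 18346 with butyrate (1.42 ± 0.37), higher in 34 of 36 pairs. mt-Co3 was at 597, 1200 and 2012 in control and 1848, 2512 and 3635 with butyrate (1.21 ± 0.31), and here control replicate 3 was not the highest control. mt-Atp6 was at 1.19 ± 0.33, mt-Atp8 at 1.04 ± 0.30 and mt-Co1 at 0.82 ± 0.26. These genes are among the most abundant of each library, and quantile normalization, which gives all libraries the same top values, left a median of 0.08 and mt-Co1 at -0.19.

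Nuclear genes of the respiratory chain lay above control across every complex. Of 91 tested, 86 lay above, 52 at an unadjusted p under 0.05 (17.2% of all genes), and the median was 0.58. Without control replicate 3 the median was 0.76 and 78 passed higher, against 23.4% of all genes. The medians were 0.58 for complex I (38 of 38 above), 0.49 for complex II (4 of 4), 0.53 for complex III (14 of 15), 0.56 for complex IV (14 of 16) and 0.65 for ATP synthase (16 of 18). Cox7b, a complex IV subunit, was at 136, 204 and 502 scaled TPM in control and 293, 475 and 583 with butyrate (0.96 ± 0.30). Atp5mk of ATP synthase was at 0.79 ± 0.24, Cox6c of complex IV at 0.66 ± 0.20 and Ndufc2 of complex I at 0.39 ± 0.12. For TPM as deposited Ndufc2 was at -0.09 and the list's median at 0.10, both still above the median of all genes on that scale. Mitochondrial ribosomal proteins shifted less, with 64 of 78 above control and a median of 0.20 (-0.27 for TPM as deposited). Mrpl30 was at 0.72 ± 0.24 and Mrps18c at 0.35 ± 0.12.

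Fuel enzymes divided by isoform. Fatty acid oxidation genes lay above control in 19 of 20 cases with a median of 0.46 (-0.01 for TPM as deposited), among them the heart and muscle fatty acid-binding protein Fabp3 (1.08 ± 0.39) and the medium-chain dehydrogenase Acadm (0.73 ± 0.26). The exception was Cpt1a, the carnitine palmitoyltransferase of liver and many dividing cells, at 11.997, 39.4 and 48.3 scaled TPM in control and 9.13, 14.6 and 28.7 with butyrate (-1.001 ± 0.36). In glycolysis 12 genes lay above control and 8 below, all 8 at an unadjusted p under 0.05, so the list's median of 0.39 (-0.01 with quantile normalization, -0.09 for TPM as deposited) hides opposite parts. Enolase shows the split: the ubiquitous Eno1 was at 163, 308 and 348 scaled TPM in control and 151, 165 and 173 with butyrate (-0.78 ± 0.17). Muscle Eno3 was at 585, 2047 and 5248 in control and 2010, 3770 and 4745 with butyrate (0.97 ± 0.44). Phosphoglycerate mutase split alike, with Pgam1 at -1.51 ± 0.46 and the muscle form Pgam2 at 0.89 ± 0.43. So did phosphofructokinase, with the liver form Pfkl at -1.13 ± 0.37 and the muscle form Pfkm at 0.88 ± 0.44, and Hk1, the ubiquitous hexokinase, was at -0.87 ± 0.26.

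The same split ran through cytochrome c oxidase, whose subunits have heart and muscle forms. Cox8b, the muscle form, was at 343, 934 and 2282 scaled TPM in control and 987, 2084 and 2944 with butyrate (1.06 ± 0.43), and the ubiquitous Cox8a was at 137, 248 and 360 and at 112, 168 and 193 (-0.63 ± 0.23). Cox6a2 of muscle was at 0.89 ± 0.40 and the ubiquitous Cox6a1 at -0.58 ± 0.22. The third pair did not split, with the muscle form Cox7a1 at 0.89 ± 0.35 and the ubiquitous Cox7a2 at 0.53 ± 0.21. Atp5if1, the inhibitor of ATP synthase, had the lowest value of the respiratory chain list, -0.67 ± 0.34. The muscle and ubiquitous forms named here, with Cox7a2, were chosen after their values were seen. All 12 enolase, mutase, phosphofructokinase and oxidase genes named here, the Cox7a pair included, and Atp5if1 passed in limma without control replicate 3, each in the direction given. In that fit 23.4% of all genes passed higher and 24.5% lower, so this is a description and not independent support.

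Skeletal muscle genes ran with these values. Each of the 39 tested members was above control, 27 of them at an unadjusted p under 0.05 (17.2% of all genes), and the median was 0.96. Without control replicate 3, 38 passed higher, against 23.4% of all genes. Myl1, the fast myosin light chain, was at 1976, 5394 and 13550 scaled TPM in control and 7286, 13586 and 17420 with butyrate (1.24 ± 0.41). Trdn, which anchors the calcium release unit, was at 1.41 ± 0.46, Xirp2 of the Z-disc at 1.41 ± 0.46, Smpx at 1.21 ± 0.40 and Acta1, skeletal actin, at 0.93 ± 0.40. Fast and slow myosin and troponin genes did not separate, with medians of 0.99 over 8 genes and 0.95 over 6. Transcription factors and other regulators of muscle lay above control in 12 of 12 cases with a median of 0.50, led by Mef2c (0.99 ± 0.27) and Six4 (0.72 ± 0.28). Muscle scores ran from 7.60 to 9.49 in the other controls, stood at 10.5 in control replicate 3 and ran from 9.47 to 10.7 with butyrate. When the first 2 principal components of 8 tissue lists, muscle among them, entered the fit as covariates, the median of the respiratory chain was -0.04, of fatty acid oxidation -0.04, of mitosis -0.09, of DNA replication -0.11 and of the mitochondrial genome 0.36. With these covariates ribosome biogenesis was at -0.17.

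**Figure D4:**
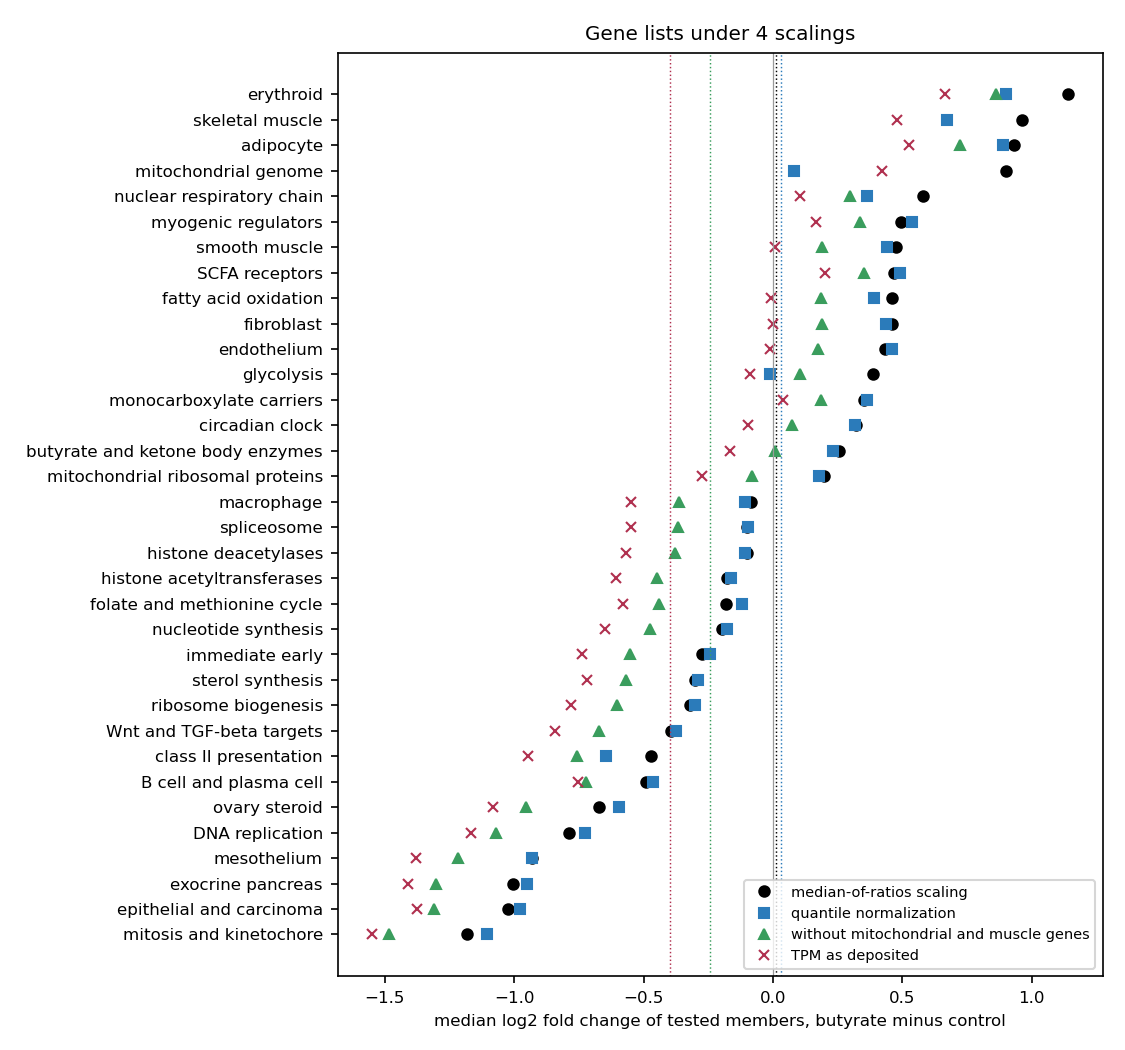
Median log2 fold change (butyrate minus control) of the tested members of each gene list under 4 scalings, with dotted lines at the median of all genes on each scale (0.01, 0.03, -0.24 and -0.40). Mitosis lies lowest of these lists on every scale, at -1.18 with median-of-ratios scaling, and the mitochondrial genome moves most, from 0.90 to 0.08 with quantile normalization.

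Adipocyte genes lay above control in 19 of 19 cases, with a median of 0.93. The median was 1.21 without control replicate 3, where 15 passed, and -0.08 with tissue covariates. Adiponectin (Adipoq), a hormone of fat cells, was at 31.0, 68.9 and 177 scaled TPM in control and 53.5, 196 and 371 with butyrate (1.25 ± 0.51). Pck1, which supplies glycerol phosphate in fat, was at 1.69 ± 0.54, Lgals12 at 1.05 ± 0.39 and Acvr1c at 0.67 ± 0.24. The adipocyte score was 6.26 in control replicate 3, 4.43 to 5.37 in the other controls and 4.76 to 6.84 with butyrate. Globin genes of red blood cells were above control too. All 5 tested erythroid genes, of 10 listed, lay above (median 1.14, and 0.43 with tissue covariates, of which this list is part). Hba-a2 was at 245, 740 and 1215 in control and 663, 1672 and 2466 with butyrate (1.15 ± 0.46), and Hbb-bs at 1.15 ± 0.45. Without control replicate 3 the erythroid median was 1.23 and 1 of the 5 passed higher, against 23.4% of all genes. For the globins control replicate 3 lay inside the control range, at 843 for Hba-a2.

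Fibroblast, smooth muscle and endothelial genes mostly lay above control, while collagens and matrix proteases lay on both sides. Of 30 tested collagen genes 16 lay above (median 0.08), and of 34 matrix proteases and their inhibitors 19 (median 0.08). Of 16 fibroblast genes 14 lay above (median 0.46, 0.00 for TPM as deposited), with Dpt, a matrix protein of fascia and dermis, at 152, 170 and 345 scaled TPM in control and 277, 389 and 588 with butyrate (0.96 ± 0.25). The fibroblast receptor Pdgfra was at 0.64 ± 0.19, the protease Fap at 0.73 ± 0.18 and the proteoglycan Lum at 0.64 ± 0.23. With tissue covariates the fibroblast median was 0.34, more of its value than the muscle (0.17) or adipocyte (-0.08) lists kept, whose own genes are among the covariates. Smooth muscle genes (10 of 11 above, median 0.47) included the myosin Myh11 (0.64 ± 0.21) and phospholamban, Pln (0.87 ± 0.25). Endothelial genes lay above in 13 of 16 cases (median 0.43, -0.01 for TPM as deposited), with the angiopoietin receptor Tek at 0.86 ± 0.30 and Egfl7 at 0.87 ± 0.29. Without control replicate 3 the medians were 0.60 for fibroblast, 0.62 for smooth muscle and 0.61 for endothelial genes, with 9, 8 and 10 members passing higher, and with tissue covariates the endothelial median was -0.10. Flt4, the receptor of lymphatic vessels, was at 2.99, 7.98 and 10.5 in control and 1.98, 3.19 and 4.48 with butyrate (-0.93 ± 0.28).

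Most tested markers of tumour and of the peritoneal lining lay below control and differed widely between libraries of a group. The usual carcinoma marker Epcam was at 0.515 scaled TPM or less in every library, so these pieces cannot be graded for tumour by it. Of 10 tested epithelial and carcinoma genes, of 22 listed, 7 lay below, 1 of them at an unadjusted p under 0.05, with a median of -1.03. The median was -1.49 without control replicate 3, where 6 passed lower, and 0.17 with tissue covariates, which do not include these genes. Krt8, a keratin of simple epithelia and mesothelium, was at 0.389, 136 and 201 in control and 0.427, 18.4 and 99.7 with butyrate (-2.10 ± 1.31). Control replicate 3 was the lowest of all 12 libraries for Krt8, and without it the log2 fold change was -3.21. Folr1, the folate receptor of ovarian tumours, was at -2.02 ± 1.04, Muc16, which encodes CA125, at -1.37 ± 0.73 and Elf3 at -0.68 ± 0.26, and Sox17 lay above control at 0.60 ± 0.24. Mesothelium genes lay below in 14 of 15 cases, 2 of them at an unadjusted p under 0.05, against 17.9% of all genes (median -0.93). Their median was -1.49 without control replicate 3, where 11 passed lower, and -0.23 with tissue covariates. Of these, Rspo1 was at 3.61, 42.6 and 57.5 in control and 2.32, 11.7 and 27.6 with butyrate (-1.46 ± 0.64). Wt1 was at -2.24 ± 1.39, Lrrn4 at -1.08 ± 0.48 and Cldn15 at -0.75 ± 0.36, while Efemp1, a matrix protein also made by fibroblasts, was at 0.62 ± 0.22. Control replicate 3 and butyrate replicate 1 were lowest in mesothelium, at scores of 1.97 and 1.96, and scored 1.46 and 1.12 for mitosis. Butyrate replicates 4 and 5, at 4.00 and 3.31 for mesothelium, scored 1.69 and 1.18 for mitosis, so the order of libraries was not the same for both lists. The ovary score did follow the order of mitosis among the butyrate libraries, from 1.78 in replicate 1 to 3.60 in replicate 2. The epithelial and carcinoma score was likewise lowest in replicate 1 (1.16) and highest in replicate 2 (3.69). Control replicate 3 was at 1.84 for ovary and 1.28 for epithelial and carcinoma genes. The part of the lining and tumour content in the lower proliferation values was not tested.

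**Figure D5:**
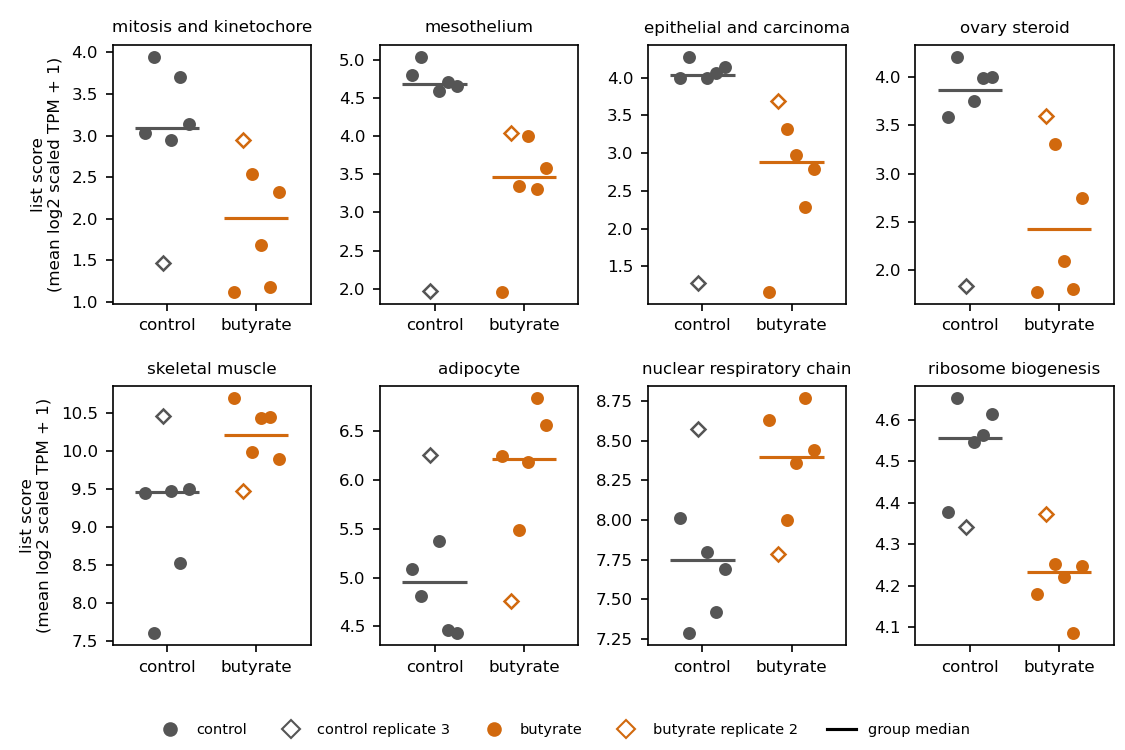
Score of 8 gene lists, the mean log2(scaled TPM + 1) of their tested members, in each library, with a line at each group's median. Control replicate 3 (grey diamond) lies at 1.46 for mitosis and 1.28 for epithelial and carcinoma genes, apart from the other controls, and butyrate replicate 2 (orange diamond) is the library of its group nearest to the other controls in these 8 panels.

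The tested ovary and pancreas genes lay below control. Of 17 listed ovary genes 9 were tested and all 9 lay below (median -0.67, but 0.17 with tissue covariates). Star, which brings cholesterol into mitochondria for steroid synthesis, was at 1.29, 71.1 and 98.4 scaled TPM in control and 1.27, 6.28 and 47.6 with butyrate (-2.32 ± 1.01). Amh of granulosa cells was at -1.48 ± 0.47 and Fdxr at -0.67 ± 0.25. Of 20 listed genes of the exocrine pancreas 5 were tested and all 5 lay below (median -1.004, and -0.02 with tissue covariates, of which both lists are part), with Pnlip, the pancreatic lipase, at -1.85 ± 0.71 and Cela1 at -1.004 ± 0.36. Without control replicate 3 the medians were -0.81 for ovary and -1.34 for pancreas, with 5 and 4 members passing lower. Of hepatocyte genes 3 were tested, 1 above and 2 below control (median -0.30), and of intestinal epithelium 2, 1 on each side (median -0.17).

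The few tested receptors of short-chain fatty acids, and most tested genes of the carriers of butyrate and their chaperones, lay above control. All 3 tested receptors, of 6 listed, did (median 0.47, 0.56 without control replicate 3 and 0.09 with tissue covariates), 1 of them at an unadjusted p under 0.05. Of 5 tested genes of monocarboxylate carriers and their chaperones 4 did, 1 of them at an unadjusted p under 0.05, against 17.2% of all genes. Their median was 0.35, but 0.04 for TPM as deposited and -0.21 with tissue covariates. Ffar2 was at 0.295 to 1.51 scaled TPM in control and 0.217 to 1.43 with butyrate, and Ffar3 at 0.0587 or less in every library, both too low to be tested. Hcar2, the nicotinic acid receptor that butyrate activates in colon and fat, was at 0.515, 0.728 and 1.40 in control and 0.886, 1.37 and 2.61 with butyrate (0.47 ± 0.18, higher in 33 of 36 pairs). Slc16a1 (MCT1), a carrier and the 1 tested member of that list below control, was at 14.6, 16.7 and 32.7 in control and 11.7, 14.8 and 18.2 with butyrate (-0.32 ± 0.18). Here control replicate 3 alone held the top value, the other controls reached 17.8, and the log2 fold change without it was -0.16. Emb, a chaperone of the carriers counted in the same list, was at 0.46 ± 0.21. Of 14 tested enzymes that use butyrate and ketone bodies, 12 lay above control (median 0.26, but -0.17 for TPM as deposited and -0.13 with tissue covariates), and without control replicate 3 the median was 0.36 and 6 passed higher. They included Acsm3, which activates butyrate in mitochondria, at 0.565, 0.933 and 1.72 in control and 1.11, 2.99 and 16.5 with butyrate (1.35 ± 0.42). Acss3 was at 1.02 ± 0.31, the thiolase Acat1 at 0.69 ± 0.27 and Oxct1, which opens ketone body use, at 0.31 ± 0.14.

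Histone deacetylases, the enzymes that butyrate inhibits, differed by member. Of the 11, 7 lay below control, with a median of -0.10, or -0.14 without control replicate 3 and 0.06 with tissue covariates. Hdac1 was at 19.95, 37.5 and 45.7 scaled TPM in control and 18.7, 24.4 and 33.4 with butyrate (-0.48 ± 0.19), and Hdac8 at -0.38 ± 0.17. Hdac3 was at 34.1, 40.0 and 44.3 and at 32.01, 37.4 and 39.4 (-0.10 ± 0.09). Hdac4, a class IIa member abundant in muscle, lay above control at 0.51 ± 0.23. Histone acetyltransferases lay below in 8 of 10 cases (median -0.18), with Ep300 at -0.45 ± 0.15, Kat2a at -0.41 ± 0.12 and Kat7 at -0.34 ± 0.10. Kat2b, the paralog of Kat2a, lay above at 0.25 ± 0.12 but at -0.21 for TPM as deposited.

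Class II and B cell genes lay below control, and other immune lists had members on both sides. Cd8a, Gzmb and Foxp3, of cytotoxic and regulatory T cells, were at 0.872, 0.565 and 0.622 scaled TPM or less in every library and were not tested. Cd274, which encodes PD-L1, was at 2.07, 3.96 and 5.02 in control and 2.85, 4.87 and 4.97 with butyrate (0.18 ± 0.20, -0.21 for TPM as deposited). Macrophage genes lay on both sides (9 above, 12 below, median -0.08), from -1.40 to 1.30. At an unadjusted p under 0.05, 5 of 21 lay above control and 0 below, against 17.2% and 17.9% of all genes. Without control replicate 3, 5 passed higher and 3 lower in limma. The members of smallest p, all above control, were Clec10a (0.62 ± 0.26), Mgl2 (0.58 ± 0.25), the mannose receptor Mrc1 (0.56 ± 0.19) and the efferocytosis receptor Mertk (0.29 ± 0.13, -0.07 for TPM as deposited). Mrc1 was at 17.3, 24.5 and 29.7 in control and 24.8, 36.03 and 49.0 with butyrate. All 11 genes of class II antigen presentation lay below control (median -0.47), none at an unadjusted p under 0.05. The median was -0.72 without control replicate 3, where 7 of the 11 passed lower in limma, and 0.13 with tissue covariates. Their transactivator Ciita was at 2.02, 8.07 and 13.3 in control and 1.58, 3.78 and 7.40 with butyrate (-0.78 ± 0.38). All 10 tested B and plasma cell genes, of 17 listed, lay below too (median -0.49, but 0.14 with tissue covariates). The B cell kinase Blk was at -0.73 ± 0.29. At an unadjusted p under 0.05, 1 of the 10 lay lower, against 17.9% of all genes. The list's score was higher with butyrate in 12 of 36 pairs. Without control replicate 3 the median was -0.64 and 2 passed lower in limma, against 24.5% of all genes. T cell (median -0.14) and interferon response genes (-0.20) had members on both sides.

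Signalling genes that respond within minutes to growth factors were mostly below control. Of 21 tested immediate early genes 17 lay below (median -0.27), and Jund, a subunit of AP-1, was at 29.5, 62.5 and 71.1 scaled TPM in control and 17.8, 27.3 and 38.8 with butyrate (-0.99 ± 0.23, higher in 2 of 36 pairs). Myc was at -1.29 ± 0.43, Fosl2 at -0.98 ± 0.32 and Fosb at -0.93 ± 0.28. Targets of Wnt and TGF-beta signalling lay below in 14 of 17 cases (median -0.39), with medians of -0.48 without control replicate 3, where 10 passed lower, and 0.02 with tissue covariates. Ccn2 was at -1.23 ± 0.44 and Axin2 at -0.99 ± 0.32. Smad7, the inhibitor that TGF-beta induces, did not overlap between the groups, at 4.46, 5.01 and 5.55 in control and 1.87, 3.45 and 4.41 with butyrate (-0.53 ± 0.15).

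Clock genes lay above control in 13 of 18 cases (median 0.32, -0.10 for TPM as deposited). The nuclear receptors of the clock led: Rora was at 2.43, 5.98 and 16.2 scaled TPM in control and 8.62, 13.1 and 19.6 with butyrate (1.04 ± 0.34), Nr1d1 was at 0.90 ± 0.31 and Nr1d2 at 0.73 ± 0.22. The labels do not give the hour of sampling.

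Sterol, folate and nucleotide enzymes mostly lay below control, while those of fatty acid synthesis lay on both sides. Of 13 tested fatty acid synthesis genes 9 lay above control (median 0.05, but -0.42 for TPM as deposited), from -1.62 to 0.71. At an unadjusted p under 0.05, 0 of them lay higher and 3 lower. Their score was higher with butyrate in 15 of 36 pairs. Sterol synthesis genes lay below in 15 of 22 cases (median -0.30), with Dhcr7 at -0.85 ± 0.28 and Fdps at -0.36 ± 0.13. Without control replicate 3 the sterol median was -0.38 and 11 passed lower, against 24.5% of all genes. In the folate and methionine cycle 19 of 25 lay below (median -0.18). Gart, of purine synthesis, was at 26.5, 29.4 and 33.5 scaled TPM in control and 20.6, 21.96 and 25.5 with butyrate (-0.38 ± 0.09), with no overlap and with control replicate 3, at 31.8, on the control side. Psat1 of serine synthesis was at -1.01 ± 0.32 and Atic at -0.43 ± 0.15. Without control replicate 3 the folate median was -0.24 and 9 of 25 passed lower, against 24.5% of all genes. Nucleotide synthesis genes lay below in 14 of 21 cases (median -0.20, and -0.25 without that library), including Dtymk (-0.64 ± 0.21) and Gmps (-0.46 ± 0.14).

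Acot1, Midn and Tceal7 were added after their values were seen. Acot1, a thioesterase that splits long-chain acyl-CoA, was at 14.3, 31.6 and 42.2 scaled TPM in control and 2.05, 6.36 and 17.8 with butyrate, a log2 fold change of -2.03 ± 0.44, higher in 1 of 36 pairs. It shares near-identical paralogs, so reads may have been divided among copies. Midn, of the midnolin-proteasome pathway, was at 17.2, 20.4 and 22.8 in control and 7.90, 11.8 and 16.1 with butyrate (-0.76 ± 0.19) with no overlap, and control replicate 3 stood at 17.6. Tceal7 did not overlap either, at 7.77, 13.8 and 26.6 in control and 26.8, 31.2 and 38.6 with butyrate (1.09 ± 0.28).

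The other acids of the series give a scale for these values. In a fit of all 24 libraries, which shares the control libraries between comparisons, the mitosis list had a median of -1.18 with butyrate, -1.09 with propionate and -0.89 with both acids, each against control. The combination gave 52 genes higher (0.366%) and 2 lower (0.0141%) than control by limma, and propionate 0 and 0. The mitochondrial genome list was at 0.90, 0.63 and 0.16, and skeletal muscle at 0.96, 0.67 and -0.98. Combination replicate 5 stood apart in muscle, with 0.0222% of TPM from that list against 6.73 to 15.5% in the other 5, so the combination value rests in part on it. Fatty acid oxidation was at 0.46, 0.47 and 0.22, and ribosome biogenesis at -0.32, -0.14 and -0.18. Propionate has a carbon chain shorter than that of butyrate. Tested directly in that fit, butyrate against propionate gave 0 genes higher (0%) and 0 lower (0%) by limma, with 92 and 108 at an unadjusted p under 0.05 and a smallest adjusted p of 0.9998. Pank1 differed by -0.67 ± 0.45 (butyrate minus propionate), mt-Nd3 by 0.49 ± 0.46, Ncapd2 by -0.32 ± 0.35 and Mki67 by 0.05 ± 0.60. Other named genes had differences larger beside their SEs: Irag1 (0.47 ± 0.12), Fap (0.43 ± 0.19) and Gart (-0.25 ± 0.12). None of these genes passed between the acids.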

How the data were processed

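RNA of 6 control and 6 butyrate samples was sequenced as stranded libraries of polyadenylated RNA, per the labels' protocols. Per the submitters' processing notes, fastp, HISAT2, StringTie and the mouse build mm39 were used. For their versions, order and settings and for the annotation, the sources used here give nothing. TPM was deposited by the authors for 149132 transcripts, and each library sums to 1000000. TPM keeps no sequencing depth, so depth is unknown and no counting interval is given. Transcripts were added up by gene name (56422 names), and 1001 transcripts without a name (0.174 to 0.470% of TPM) were left out.

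Genes with TPM of at least 1 in at least 6 of the 12 libraries were tested, 14189 in all. Values were divided by median-of-ratios size factors and fitted as log2(scaled TPM + 1), a scale that understates changes of genes near 0, with limma 3.58.1 (trend and robust settings) in R 4.3.3. Tests are two-sided with Benjamini-Hochberg adjustment over all tested genes and a threshold of 0.05, and the scripts were tested on simulated data. Lists are described by counts and medians without a test of their own. Counts of members are of those that passed the filter, which can admit a gene through the group where it is high. The members and lists were chosen with earlier results of these data known. Named genes are, as fewer than 20 passed, the 10 of smallest unadjusted p in each direction with a mean log2 value of at least 2, up to 4 members of smallest p in each described list, and 18 always given. Names of predicted genes were passed over. One gene of a described list is not reported here. Genes added after their values were seen are Acot1, Midn, Tceal7, Pttg1, Kat2b, Atp5if1, Cox8a, Cox8b, Cox6a1, Cox6a2, Cox7a1, Cox7a2, Eno3, Pgam2 and Pfkm.

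Promoter sequences are RefSeq's on GRCm38.p6, an older build than mm39, and are used only as sequences. Of 45 tested mitosis genes 37 matched that table. Whether counting used the strand is not stated, so antisense and paralogous genes are uncertain.

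Other settings were TPM as deposited, quantile normalization, leaving out mitochondrial genome and skeletal muscle genes, trimmed mean scaling, a pseudocount of 0.1, no filter, a filter of TPM 5, all 24 libraries, plain moderation, weights per library, blocks by title or library number, and each library left out. Tissue covariates were principal components 1 and 2 of 8 list scores: ovary, erythroid, hepatocyte, intestinal epithelium, exocrine pancreas, adipocyte, smooth muscle and skeletal muscle.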

Additional observations from a re-analysis of the deposited data

Results flagged for a closer look

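In a group of 6 libraries, a library was picked out when its gap to the nearest other, as a part of the group's range, exceeded Dixon's critical value. This was checked for the named genes and the list scores, 366 groups in all, and picked out 45, while chance picks out about 1 in 20. Values are log2(scaled TPM + 1), or their mean over a list.

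Most of these were control replicate 3. It lay far below the other 5 controls for genes of the lining, tumour, ovary and pancreas: Amh (0.21), Cldn15 (2.55), Folr1 (1.44), Krt8 (0.47), Lrrn4 (1.22), Muc16 (0.23), Pnlip (0.00), Rspo1 (2.20), Star (1.19) and Wt1 (0.84). It also lay far below them for genes of cell division and signalling: Axin2 (3.02), Ccn2 (4.02), Mcm2 (2.37), Mki67 (1.05) and Racgap1 (1.88). The same held for Atp5if1 (6.14), Eno1 (7.35), Hdac8 (1.98), Hk1 (3.49), Pfkl (2.94) and Pgam1 (5.76), of metabolism and chromatin. It lay far above the other controls for Hcar2 (1.26), Oxct1 (7.03) and Slc16a1 (5.07). Among list scores it was far below for DNA replication (2.03), mesothelium (1.97), epithelial and carcinoma (1.28), ovary steroid (1.84), exocrine pancreas (0.55), histone deacetylases (3.47), class II presentation (4.74), sterol synthesis (3.17) and Wnt and TGF-beta targets (2.93), and far above for monocarboxylate carriers (5.35) and butyrate and ketone body enzymes (4.47). These genes and lists share libraries and are not independent of each other.

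Elsewhere, butyrate replicate 1 lay far below its group for Cela1 (1.42) and the mesothelium score (1.96). Butyrate replicate 2 lay far below for the score of myogenic regulators (3.25) and far above for sterol synthesis (3.69) and nucleotide synthesis (4.37). Butyrate replicate 5 lay far below for Kat2a (3.10) and Nop2 (3.12), and butyrate replicate 6 for Hdac3 (5.04) and Lsm2 (3.70). Control replicate 5 lay far above for the immediate early score (4.25).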

How the results depend on the processing

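The count of 0 genes in each direction was the same with TPM as deposited, quantile normalization, mitochondrial and muscle genes left out, trimmed mean scaling, other pseudocounts and filters, plain moderation, all 24 libraries and tissue covariates. Limma with weights per library, which gave control replicate 3 a weight of 0.196, called 3971 genes higher and 4081 lower. Leaving out a library gave 0 to 3316 higher and 0 to 3480 lower, the upper ends without control replicate 3. With TPM as deposited, unadjusted p-values under 0.05 numbered 355 above control and 6741 below, against 2438 and 2542 after scaling. Leaving out a library moved the difference in the share of TPM from the mitochondrial genome between 5.75 and 7.71 percentage points and that in the share of TPM from the skeletal muscle list between 1.93 and 4.12, where the latter, without control replicate 3, had an exact permutation p of 0.0281.

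The replicate numbers were not used to pair the samples. Correlations of deviations ran from -0.60 to 0.67 by title number and from -0.35 to 0.67 by library number. Not every library correlated best with its own number, but control replicate 2 and butyrate replicate 2 did under both numberings (0.67). Libraries of a group differ widely along the first principal component, so this check cannot tell whether libraries of a number were handled together. A replicate block by title number called 0 genes, and kept the difference in the share of TPM from the mitochondrial genome at 6.52 points with an exact sign-flip p of 0.0625. A replicate block by library number called 2157 higher and 2269 lower, or 2023 and 2599 with all 24 libraries. In the 12 libraries only numbers 3, 5, 6 and 7 occur in both groups. Control replicates 1 and 3 and butyrate replicates 1 and 6 therefore add nothing to that blocked difference. With all 24 libraries, control replicate 3 shares its number with propionate replicate 2.

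Among named genes the sign turned for TPM as deposited in Cd274 (-0.21), Cdkn1a (-0.40), Kat2b (-0.21), Mertk (-0.067), Mrps18c (-0.12), Ndufc2 (-0.087), Oxct1 (-0.16) and Pttg1 (-0.078). With mitochondrial and muscle genes left out it turned in Cd274 (-0.053), Cdkn1a (-0.22) and Kat2b (-0.023). Quantile normalization turned Acta1 (-0.088) and mt-Co1 (-0.19). Tissue covariates turned Atp5if1 (0.0090), Ciita (0.15), Folr1 (0.21), Krt8 (0.74), Muc16 (0.34), Star (0.21), Wt1 (0.85), Cd274 (-0.079), Cdkn1a (-0.22), Mgl2 (-0.0073), Pgam2 (-0.020) and Pttg1 (-0.15). They also turned the medians of epithelial and carcinoma genes (0.17), ovary (0.17), class II (0.13), B cells (0.14), macrophages (0.08), Wnt and TGF-beta targets (0.02), histone deacetylases (0.06), endothelium (-0.10), carriers (-0.21), butyrate and ketone body enzymes (-0.13), adipocytes (-0.08), glycolysis (-0.09), mitochondrial ribosomal proteins (-0.12), the respiratory chain (-0.04) and fatty acid oxidation (-0.04), among others. Leaving out a library moved Cdkn1a between -0.035 and 0.21. Depth limits cannot be given for TPM, and the cause of these changes was not tested.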
